A study of Mus musculus with 16 samples.

Results

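Long-insertion rearrangements are taken here as the productive T cell receptor β (TCRβ) rearrangements that carry 8 or more inserted nucleotides, summed over the V-D and D-J joints. They were chosen by frame and by the number of inserted bases alone, in all 16 samples, and made up 8231 of 126344 unique productive rearrangements (6.51%), out of 198953 rearrangements of any frame. They held 30912 of 526888 productive templates (5.87%), a template being a starting molecule as estimated by the sequencing service. The material came from KPC-Luc tumors, which grow from a mouse pancreatic cancer line and had been implanted under the skin of female C57BL/6 mice. The labels name T cells selected by magnetic beads against CD90.2, a surface protein of T cells, but in a protocol for a Nanostring expression panel. The study also describes this selection only for that panel. Its methods for receptor sequencing name extraction from tumors and no selection, so whether the cells were sorted first is unsettled. The mice fell into 4 groups of 4: Control mice received a scrambled peptide and isotype IgG, the ANT008 group received ANT008, a peptide that blocks VIP-R, the receptors for vasoactive intestinal peptide, with IgG, the anti-PD-1 group received scrambled peptide with an anti-PD-1 antibody, and the combination group received ANT008 with anti-PD-1. Peptide was given at 10 µg every day and antibody at 200 µg every 3 days for 10 days, starting 6 to 7 days after implantation. All 4 groups carried the same tumor line and received both a peptide and an antibody, and the mice were 8 to 10 weeks old at the time of the experiments. The samples held no expression values, so the T cell label could not be set against marker genes, and whether RNA or DNA was amplified is unsettled. The samples held 7180 to 72588 productive templates and 142 to 920 long-insertion rearrangements, and p-values between groups measure the spread between mice. If RNA was amplified, more cells of a clone and more transcript per cell cannot be told apart.

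A TCRβ chain is assembled in the thymus when the RAG recombinase joins a V, a D and a J segment. Exonucleases trim the cut ends, and terminal deoxynucleotidyl transferase (TdT) adds bases without a template, with a preference for G and C. Receptors with few added bases can be built along many routes and are often found in several individuals, while receptors with many added bases are mostly private to one. The added bases lie in the third complementarity-determining region (CDR3), the loop that touches the peptide held by the MHC molecule.

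The sequences below are the largest long-insertion clone of each group, shown to make plain what was inserted and where. Each runs 5′ to 3′ from the codon of the first CDR3 residue to the codon before the last, as far as the deposited sequence reaches. Germline bases are in lower case and inserted bases in capitals, so that the first run of capitals is the V-D joint and the next one the D-J joint.
Control replicate 1, TCRBV13-03 and TCRBJ01-04: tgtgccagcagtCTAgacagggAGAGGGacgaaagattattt
ANT008 replicate 4, TCRBV14-01 and TCRBJ01-03: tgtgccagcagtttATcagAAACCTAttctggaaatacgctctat
anti-PD-1 replicate 2, TCRBV29-01 and TCRBJ02-07: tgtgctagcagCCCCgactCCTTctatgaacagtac
combination replicate 3, TCRBV02-01 and TCRBJ02-03: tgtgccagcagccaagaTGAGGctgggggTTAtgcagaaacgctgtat
These 4 clones carried 9, 9, 8 and 8 inserted bases. Between the capitals 3 to 7 bases of D were left, the fewest in the ANT008 clone.

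The next set shows how a CDR3 made with many inserted bases can be the same protein as one assigned few. The long-insertion CDR3 found in the most samples, 15 of 16, used TCRBV03-01 and TCRBJ02-07. A long-insertion form was found only in Control replicate 2, where it was built with 11 inserted bases and had 6 templates. The form that recurred most, with 1 inserted base, was identical to the nucleotide in 6 samples and had 233 templates over them.
11 inserted bases, Control replicate 2: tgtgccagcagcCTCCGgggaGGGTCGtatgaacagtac
1 inserted base, anti-PD-1 replicate 1: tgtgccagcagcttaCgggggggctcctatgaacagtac
The residues were the same and 5 of the 39 bases shown differed. Of the 11 bases read as inserted in the long-insertion form, 7 were the same base in the short form.

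Most long-insertion rearrangements lay close to the threshold. Of the 8231, 3655 had 8 inserted bases, 2104 had 9 and 1113 had 10, and the median was 9. Only 241 had 15 or more, and 68 had more than 20. Just outside the threshold lay 6457 productive rearrangements with 7 inserted bases. Both joints took part: the V-D joint held 4.95 ± 0.207 inserted bases on average (SD, n = 16 samples) and the D-J joint 4.49 ± 0.121, against 1.62 and 1.53 in the other productive rearrangements. One joint was empty in 8.86% of long-insertion rearrangements and in 53.5% of the others. At the far end the assignment of bases to segments was less secure. The CDR3 did not begin with cysteine, the conserved residue near the end of the V segment, in 154 long-insertion rearrangements (1.87%, against 0.152% of the others), and 44 of these 154 had more than 20 inserted bases. Over all 8231, 131 (1.59%) had 15 or more bases deleted from V. The rearrangement with the most inserted bases, 51, had no first cysteine and 19 bases deleted from V, with 1 template in combination replicate 2.

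The share of unique productive rearrangements with long insertions varied little between mice. It was 7.32, 6.75, 7.25 and 6.95% in the 4 Control samples, 5.96, 6.29, 5.17 and 6.73% in the ANT008 samples, 5.92, 6.71, 6.60 and 6.53% in the anti-PD-1 samples, and 6.64, 5.81, 6.76 and 6.28% in the combination samples. The Control samples took the highest places but for 1 point of contact: combination replicate 3 lay just above the lowest Control sample, and the ANT008 and anti-PD-1 samples lay below all 4 Control samples. No treated sample reached the Control mean of 7.06%. ANT008 samples averaged 1.03 points below Control (-1.03, SE 0.318; exact permutation form of Dunnett's test, p = 0.0169), anti-PD-1 samples differed by -0.624 points (exact p = 0.170) and combination samples by -0.692 points (exact p = 0.118). None of these passed adjustment over the 15 treatment comparisons made here, with an adjusted p of 0.253 for ANT008, 0.425 for anti-PD-1 and 0.355 for the combination. The ANT008 difference had an exact p of 0.0735 when all samples were thinned to 7180 productive templates, the size of the smallest, and of 0.0562 without ANT008 replicate 3, which had the second fewest productive templates and the lowest share.

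**Figure D1:**
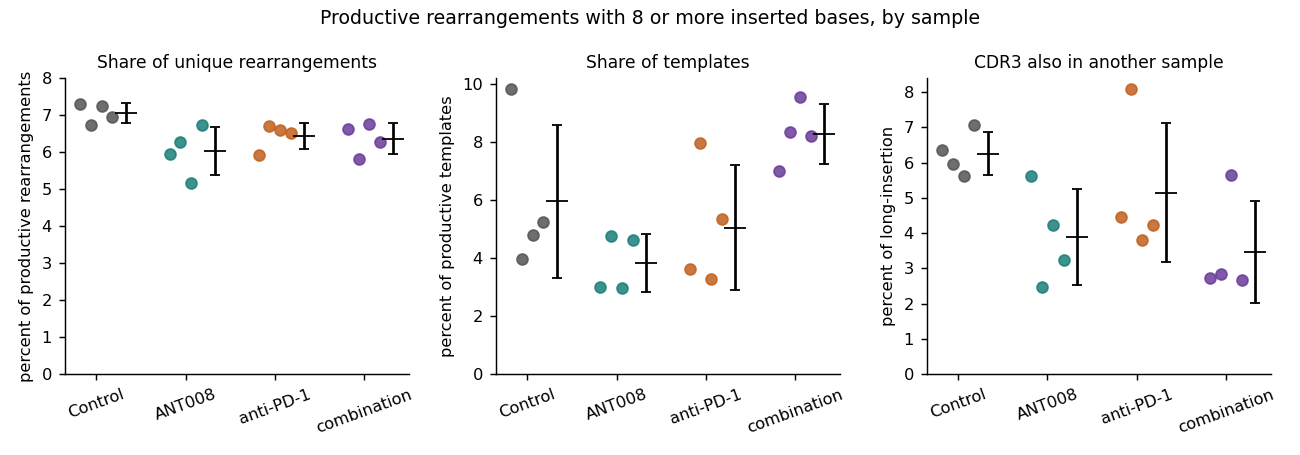
Each point is 1 sample, and the bar beside each group gives the mean with its SD (n = 4). From left to right the vertical axes give the percent of unique productive rearrangements with 8 or more inserted bases, the percent of productive templates in them, and the percent of them whose CDR3 occurs in another sample. The Control samples lie between 6.75 and 7.32% on the left, and the combination samples between 7.01 and 9.55% in the middle.

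Counted by templates, the order of the groups was another. Long-insertion rearrangements held 9.83, 3.98, 4.78 and 5.25% of productive templates in the Control samples and 7.01, 8.33, 9.55 and 8.21% in the combination samples. The ANT008 samples lay at 2.99, 4.75, 2.97 and 4.62%, and the anti-PD-1 samples at 3.61, 7.95, 3.27 and 5.36%. All 4 combination samples were above the Control mean of 5.96%, but Control replicate 1 was above all of them. The combination differed from Control by 2.31 points (SE 1.30; exact permutation form of Dunnett's test, p = 0.232), ANT008 by -2.13 points (exact p = 0.286) and anti-PD-1 by -0.913 points (exact p = 0.816), all within the spread between mice. The combination difference depended on that Control sample: without Control replicate 1 it was 3.60 points with an exact p of 0.0181, and without the largest long-insertion clone of each sample it was 0.596 points with an exact p of 0.813.

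Clone size was compared within each sample, as the log2 of the mean number of templates in a long-insertion rearrangement over the mean in the other productive rearrangements. The ratio was 0.47, -0.81, -0.64 and -0.43 in the Control samples, -1.04, -0.43, -0.83 and -0.57 with ANT008, -0.75, 0.26, -1.06 and -0.30 with anti-PD-1, and 0.08, 0.56, 0.54 and 0.42 in the combination samples. Long-insertion clones were thus larger than the others on average in 4 of 4 combination samples, 1 Control sample and 1 anti-PD-1 sample, and smaller in the remaining 10 samples. The combination differed from Control by 0.75 on the log2 scale (SE 0.31; exact permutation form of Dunnett's test, p = 0.0847, adjusted over 15 comparisons 0.355). Without Control replicate 1 the difference was 1.02 with an exact p of 0.0121, and without anti-PD-1 replicate 2, which shares in the estimate of the spread, the exact p was 0.0499.

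These ratios rested on a few large clones. The 20 largest long-insertion rearrangements held 43.1% of all long-insertion templates, while 6644 of the 8231 (80.7%) had a single template and 32 had 100 or more. In 8 samples a long-insertion clone exceeded 1% of productive templates, 12 clones in all. The largest was the TCRBV02-01 clone of combination replicate 3 whose sequence is given above, with 3406 templates or 5.80% (95% Wilson interval 5.62 to 6.00%, counting error only). It was followed among the largest clones of each mouse by a TCRBV16-01 clone in combination replicate 4 with 1696 templates (4.69%), the TCRBV13-03 clone of Control replicate 1 with 996 (3.83%) and the TCRBV29-01 clone of anti-PD-1 replicate 2 with 876 (2.77%). The largest in the ANT008 group, the TCRBV14-01 clone of replicate 4, held 253 templates (1.22%). Across groups the largest long-insertion clone of a mouse held 0.446 to 3.83% of productive templates in Control, 0.347 to 1.22% with ANT008, 0.217 to 2.77% with anti-PD-1 and 1.54 to 5.80% in the combination, so that all 4 combination samples lay above all 4 ANT008 samples. The largest clone of every sample had fewer than 8 inserted bases. With the largest long-insertion clone and the largest other clone of each sample both left out, an alternative chosen after seeing the data, the clone size ratio was -0.63 ± 0.46 in Control, -0.83 ± 0.30 with ANT008, -0.60 ± 0.43 with anti-PD-1 and -0.29 ± 0.39 in the combination on the log2 scale (SD, n = 4). It was below 0 in 3 of 4 combination samples, and the combination differed from Control by 0.34 with an exact p of 0.512. With only the largest clone of each sample left out, which takes from the other productive rearrangements alone, the group means were -0.14, -0.58, -0.30 and 0.56 in the same order.

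**Figure D2:**
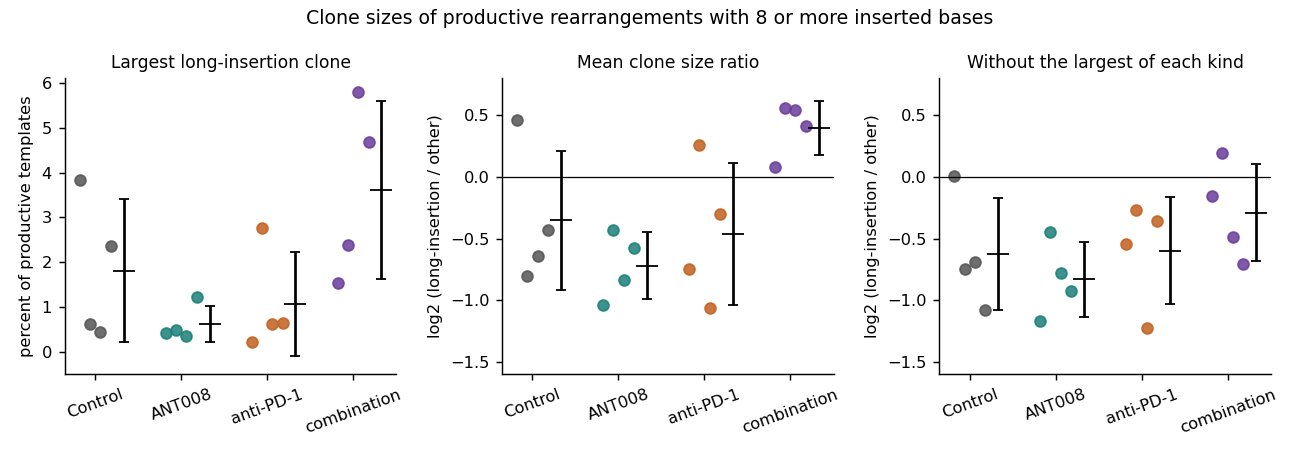
Each point is 1 sample, with the mean and SD of its group beside it (n = 4). The left axis gives the percent of productive templates in the largest long-insertion clone, and the other axes give the log2 ratio of mean templates, long-insertion over other productive rearrangements, with all clones and without the largest long-insertion and the largest other clone. All 4 combination samples are above 0 in the middle and 1 of 4 is above 0 on the right.

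The largest clone belonged to a group of near-identical CDR3s that the threshold divided. CDR3s with the same residues or 1 residue different occurred in 9 samples, as 36 rearrangements with 6352 templates, of which 18 rearrangements with 3679 templates had 8 or more inserted bases. The same amino acids were found as a clone of 459 templates (1.11%) with 7 inserted bases in Control replicate 2, and a CDR3 with 1 residue different formed a clone of 840 templates (3.43%) with 7 inserted bases in combination replicate 2. Their sequences, chosen after their values were seen and to be read beside that of the largest clone, were as follows.
same residues, Control replicate 2: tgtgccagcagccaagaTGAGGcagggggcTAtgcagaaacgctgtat
1 residue different, combination replicate 2: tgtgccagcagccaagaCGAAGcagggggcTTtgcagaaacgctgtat
All 3 clones used TCRBV02-01 and TCRBJ02-03 with 0 bases deleted from V and had 5 inserted bases at the V-D joint. Both clones with 7 inserted bases were assigned TCRBD01-01, and the clone with 8 TCRBD02-01, and they differed in the D bases kept and in the number of inserted bases after them, 2 or 3. The inserted bases at the V-D joint were the same in the clones with equal residues and others in the clone of combination replicate 2. The CDR3 with 1 residue different also reached 738 templates in Control replicate 1, 481 in ANT008 replicate 1 and, with 8 inserted bases, 256 in Control replicate 2.

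Some low-count rearrangements shared their CDR3 with a large clone. In combination replicate 3, 6 further rearrangements of 1 or 2 templates encoded the CDR3 of the largest clone, some of them with another V name. Over all samples, 231 of 7462 long-insertion rearrangements with 1 or 2 templates (3.10%) had exactly the CDR3 bases of a clone of 50 or more templates in the same sample, against 2.08% of the other productive rearrangements of that size. Of these 231, 162 carried another V name than the large clone, and for 126 the large clone itself had fewer than 8 inserted bases. Their share of a sample's long-insertion rearrangements ran from 0 to 9.54%. Without such rearrangements the ANT008 difference in the unique share was -0.755 points (exact permutation form of Dunnett's test, p = 0.0660).

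Long-insertion rearrangements recurred far less often than others. In each sample, a CDR3 was called recurrent if its amino acid sequence was productive in at least 1 other sample. That held for 18 of 283, 36 of 603, 41 of 729 and 20 of 283 long-insertion rearrangements in the Control samples (6.36, 5.97, 5.62 and 7.07%), and for 16 of 284, 17 of 684, 6 of 142 and 9 of 278 in the ANT008 samples (5.63, 2.49, 4.23 and 3.24%). In the anti-PD-1 samples it held for 26 of 583, 32 of 396, 35 of 920 and 7 of 165 (4.46, 8.08, 3.80 and 4.24%), and in the combination samples for 24 of 879, 11 of 386, 47 of 834 and 21 of 782 (2.73, 2.85, 5.64 and 2.69%). Among other productive rearrangements of the same samples the share was 32.5 to 38.0%. The difference averaged -30.5 points (SD 2.25, n = 16), with the same sign in 16 of 16 samples (permutation test over sign changes, p = 3.05e-05, the smallest the 16 samples allow, adjusted over 8 measures 3.49e-05). A match counts in every sample that holds it, so the sample values are not independent of each other. Since long-insertion CDR3s were also longer, the comparison was repeated within equal CDR3 lengths, where the shares were 4.76 ± 1.74% and 24.3 ± 2.11% (SD, n = 16), a difference of -19.6 points. Thinned to 7180 productive templates, the difference was -21.2 points.

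Recurrence stepped down with each class of inserted bases. It was 68.6% on average over the 16 samples for CDR3s with 0 inserted bases, 43.1% with 1 to 3, 18.6% with 4 to 7 and 4.69% with 8 or more. On either side of the threshold the values were 9.12% at 7 and 6.61% at 8 inserted bases, so no gap marked it. Within the long-insertion set, recurrence was 5.64% at 8 to 9 and 2.65% at 10 to 14. At 15 or more it was 0 in 14 of 16 samples, and the mean of 1.22% rested on 2 of 15 rearrangements in Control replicate 2 and 1 of 16 in Control replicate 1, and was 0.417% without Control replicate 2.

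**Figure D3:**
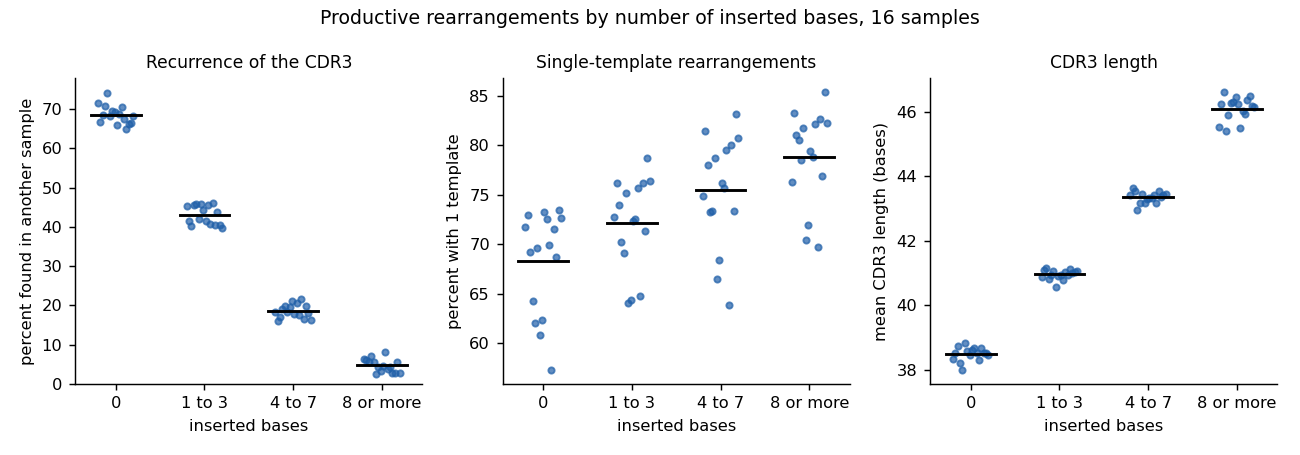
Each point is 1 of 16 samples and each line the mean over samples, for productive rearrangements with 0, 1 to 3, 4 to 7 and 8 or more inserted bases. The vertical axes give the percent of rearrangements whose CDR3 amino acids occur in another sample, the percent with 1 template and the mean CDR3 length in bases, and only the first axis starts at 0. Recurrence falls from 68.6 to 4.69% while the mean length goes from 38.5 to 46.1 bases.

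When a long-insertion CDR3 did recur, its matches elsewhere mostly had fewer inserted bases, as most productive rearrangements did. Of the 366 recurrent long-insertion rearrangements, 266 (72.7%) were matched in other samples only by rearrangements with fewer than 8 inserted bases, with a median of 3 over the matching rearrangements. Of all 126344 productive rearrangements, 118113 had fewer than 8 inserted bases, and whether the 72.7% departs from that share was not tested. Another long-insertion rearrangement with different bases matched 85, and identical nucleotides matched 19. Most recurred in few mice: 223 were found in exactly 2 samples, and 15 (0.182%) in 8 or more, against 4.55% of other productive rearrangements. After the CDR3 in 15 samples described above, the most widely found were 2 in 14 samples, 1 in 12 and 1 in 10. Their long-insertion forms were each found in only 1 sample, with 1 to 3 templates. The long-insertion form of the CDR3 in 15 samples was also found in only 1. Over all forms, 1 of those in 14 samples, mostly of TCRBV13-03 and TCRBJ02-07, had 7517 templates and that in 12 samples, mostly of TCRBV03-01 and TCRBJ01-05, had 9597.

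Identical nucleotides in different mice were rarer still. Of 8221 long-insertion nucleotide sequences 9 were found in more than 1 sample (0.109%), against 2.73% of the other productive sequences. In 8 of the 9 a second sample held 1 template, and in 7 the first sample held 10 or more. A TCRBV19-01 clone, for instance, had 740 templates in Control replicate 1 and 2 in combination replicate 1, and the TCRBV29-01 clone shown above had 876 in anti-PD-1 replicate 2 and 1 in anti-PD-1 replicate 1. The cause of these low second counts was not tested.

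By treatment, recurrence of long-insertion CDR3s averaged 6.26 ± 0.619% in Control, 3.90 ± 1.36% with ANT008, 5.15 ± 1.97% with anti-PD-1 and 3.48 ± 1.44% in the combination (SD, n = 4). The combination differed from Control by -2.78 points (SE 1.01; exact permutation form of Dunnett's test, p = 0.0488), ANT008 by -2.36 points (exact p = 0.0964) and anti-PD-1 by -1.11 points (exact p = 0.570). Over the 15 treatment comparisons the adjusted p for the combination was 0.355. Here too the samples share matches, so their values are not independent. After thinning to equal depth the combination difference was -1.82 points with an exact p of 0.255, and leaving out 1 sample at a time gave an exact p above 0.05 for 12 of the 16 samples left out, up to 0.117.

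Long-insertion rearrangements were more often seen as a single template, and rarer among productive than among out-of-frame rearrangements. Single templates made up 69.7 to 85.4% of them, 5.67 points more than of the other productive rearrangements of the same sample (SD 1.55, higher in 16 of 16; permutation test over sign changes, adjusted p = 3.49e-05). Single-template shares by treatment averaged 80.3% in Control, 75.7% with ANT008, 77.5% with anti-PD-1 and 81.8% in the combination, with exact p-values of 0.357 or higher in the exact permutation form of Dunnett's test. Out-of-frame rearrangements do not make a protein and pass through the thymus unselected, on cells whose other allele is productive. In them 8.91 to 11.7% had 8 or more inserted bases. The productive share was 3.89 points lower (SD 1.05, n = 16), in 16 of 16 samples (permutation test over sign changes, adjusted p = 3.49e-05). Counting in-frame rearrangements with a stop codon as well, 316 of 2364 of which had 8 or more inserted bases, gave -3.75 points, and dropping rearrangements with 15 or more bases deleted from V gave -2.82 points.

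The CDR3 was longer, and more bases were assigned as deleted from V and J. Mean CDR3 length was 46.1 ± 0.364 bases against 41.7 ± 0.173 in the other productive rearrangements (SD, n = 16), a difference of 4.37 bases, which is partly fixed by counting inserted bases within the CDR3. V had lost 3.80 ± 0.266 bases against 2.56 ± 0.0372, and J 3.75 ± 0.184 against 2.78 ± 0.0470. D, over both ends, had lost slightly less, 5.28 ± 0.169 bases against 5.57 ± 0.0551. The differences were 1.24, 0.972 and -0.292 bases, each with the same sign in 16 of 16 samples (permutation test over sign changes, adjusted p = 3.49e-05 for each). Deleted and inserted bases come from the same assignment of segments, so the choice by inserted bases may partly fix the V and J differences too. In the CDR3 shown above with 11 and with 1 inserted base, V had 5 and 2 bases deleted and J 4 and 0. Leaving out rearrangements with 15 or more V deletions brought the V difference to 0.858 bases. The D comparison covers rearrangements with a resolved D. A tie between TCRBD01-01 and TCRBD02-01 was recorded for 20.9% of long-insertion rearrangements and 15.9% of the others, and 14 long-insertion rearrangements had no D. The D comparison thus leaves out a larger share of the long-insertion set. Whether this bears on the D difference was not tested.

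V gene use differed between long-insertion and other productive rearrangements, but by less than 2-fold for each gene tested. With unique rearrangements as the unit, 7 of 21 V genes tested were higher among long-insertion rearrangements (33.3%) and 7 lower (33.3%) by edgeR's quasi-likelihood test with the sample as a block. Trbv26 (TCRBV26-01) was the furthest below, at 2.04% of long-insertion rearrangements against 3.12% of the others, which is -0.69 on the log2 scale (SE 0.12, edgeR adjusted p = 1.84e-07), and it was lower in 15 of 16 samples. Trbv14 (TCRBV14-01) was the furthest above, at 3.79% against 2.56%, with 0.46 (SE 0.10, edgeR adjusted p = 4.24e-05), higher in 13 of 16 samples. Also higher were Trbv24 (0.39), Trbv12-1 (0.34), Trbv16 (0.31), Trbv4 (0.24) and Trbv29 (0.24), and also lower were Trbv13-3 (-0.39), Trbv20 (-0.37) and Trbv1 (-0.30), all as log2 fold changes. The commonest V gene of the long-insertion set, Trbv13-2, held 9.14% of it against 10.2% of the others (-0.14). Counted by templates, no V gene was higher and 4 were lower, and the values of Trbv14, Trbv16, Trbv24 and Trbv4 changed sign. The calls of the higher V genes therefore concern unique rearrangements and not cells. Of the lower genes named, Trbv26 (-1.16), Trbv13-3 (-1.58) and Trbv1 (-1.06) stayed lower by templates (edgeR adjusted p = 0.0101 for each). Trbv20 lost its call by templates (-0.41, edgeR adjusted p = 0.539). With 10 or more inserted bases as the threshold, 2 V genes were higher and 2 lower.

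Some rarely named segments were held by long-insertion rearrangements alone, as was noticed after the values were seen. For 6 of the 33 V names, all listed as pseudogenes in the GRCm38.p6 annotation, all productive rearrangements had long insertions, 19 in total, of which 11 were assigned to Trbv27 (TCRBV27-01). Other rarely named pseudogenes did not follow: long insertions were found in 0 of 1 rearrangements of Trbv8, 1 of 3 of Trbv9, 11 of 54 of Trbv10 and 10 of 194 of Trbv22. Over all 11 V names listed as pseudogenes the share was 7.93% (508 of 6408), against 6.44% for the other 22. That share was mostly set by Trbv29, which is also listed as a pseudogene and had 467 of 6137 (7.61%). Of the rarely named J segments, TCRBJ01-07 had 4 of 4 and TCRBJ02-06 1 of 12. How these names were assigned was not tested.

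Among 12 J genes tested 2 were higher (16.7%) and 3 lower (25%) by edgeR. With TMM factors or with DESeq2, 3 were higher and 1 was lower. TCRBJ01-06 was lower in 16 of 16 samples, at 2.21% of long-insertion rearrangements against 3.12% of the others, or -0.45 on the log2 scale (SE 0.07, edgeR adjusted p = 0.000112). Its call was lost by templates (-0.47, edgeR adjusted p = 0.223) and with 10 or more inserted bases (-0.35, edgeR adjusted p = 0.236). The calls of the J genes named below were lost under both of these settings as well. TCRBJ02-02 (-0.18) and TCRBJ01-01 (-0.16) were lower as well, but both calls were lost with DESeq2 (adjusted p = 0.279 and 0.195) and with TMM factors in edgeR (adjusted p = 0.121 for each). The TCRBJ02-02 call was also lost without Control replicate 2 (edgeR adjusted p = 0.0595) and without combination replicate 1 (edgeR adjusted p = 0.136). TCRBJ02-03 was higher by 0.21 (SE 0.06, edgeR adjusted p = 0.00850), at 9.76% against 8.46%, with a lost call when only resolved D genes were kept (edgeR adjusted p = 0.0730), and TCRBJ02-04 by 0.15 (edgeR adjusted p = 0.0326). The TCRBJ02-04 call was lost when Control replicate 2, Control replicate 3, ANT008 replicate 4, combination replicate 1 or combination replicate 4 was left out, with values of 0.13 to 0.15. TCRBD02-01 was named for 40.8 ± 3.38% of long-insertion rearrangements against 39.0 ± 1.33% of the others, and TCRBD01-01 for 37.6 ± 2.28% against 42.5 ± 0.742% (SD, n = 16), as a description.

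**Figure D4:**
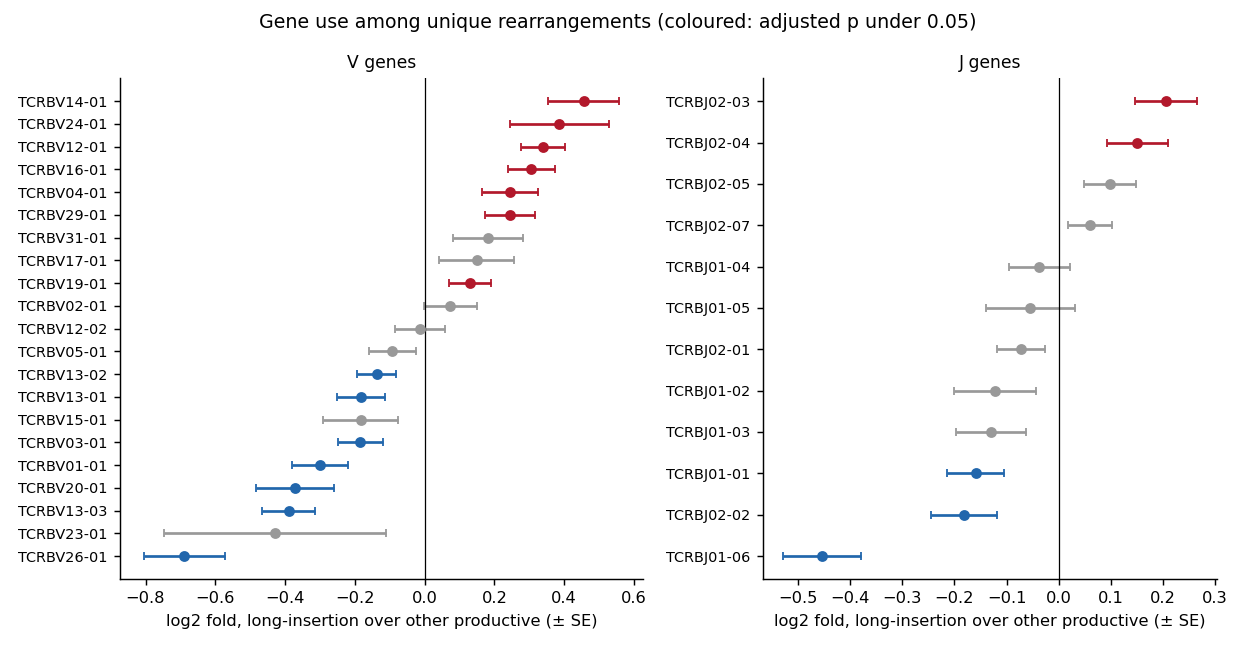
Points give the log2 fold change of each V gene (left) and J gene (right) in the use by unique rearrangements, long-insertion over other productive, with bars for the standard error from edgeR. Red genes were higher and blue genes lower at an adjusted p under 0.05, and grey genes did not pass. Trbv26 (TCRBV26-01) at -0.69 and TCRBJ01-06 at -0.45 are the lowest.

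Within the long-insertion set, V gene use was compared between treatments. No V gene of 20 tested passed in any of the 3 comparisons with Control (0% for each, higher and lower). At an unadjusted p under 0.05 edgeR called 1 gene in each comparison, and DESeq2 called 1, 0 and 0, with none after adjustment. The smallest p-values belonged to Trbv13-2 with ANT008 (log2 fold change -0.43, edgeR adjusted p = 0.470), Trbv20 with anti-PD-1 (0.66, edgeR adjusted p = 0.570) and Trbv13-1 with the combination (0.48, edgeR adjusted p = 0.410).

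Inserted bases were rich in G and C, and more so in the long-insertion set. G and C made up 63.9 ± 1.42% of its inserted bases and 58.6 ± 0.417% of those of the other productive rearrangements (SD, n = 16), as a description. C led at the V-D joint with 46.0% (48.4% in the others), where G was 22.4% (18.3%), and G led at the D-J joint with 38.5% (30.8%), where T was 19.6% (25.9%).

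At the protein level, residues whose codon held at least 2 inserted bases were counted as inserted. A long-insertion CDR3 held 3.08 ± 0.0641 of them on average and another productive CDR3 0.902 ± 0.0183 (SD, n = 16), a difference that the choice by inserted bases fixes. Proline was the most common, at 16.2% of inserted residues against 16.4% (edgeR adjusted p = 0.576). Of 20 amino acids, 4 were higher (20%) and 7 lower (35%) by edgeR. The split depended on the scaling, with 8 higher and 4 lower under TMM factors and 6 each way with DESeq2. Glycine, the smallest and most flexible residue, was at 14.2% against 10.6% (log2 fold change 0.41, SE 0.04, edgeR adjusted p = 2.82e-13), and arginine, which is positively charged, at 11.4% against 9.75% (0.22, edgeR adjusted p = 3.39e-06). Methionine was higher by 0.40 at 0.596% against 0.462%. Lower were valine (4.89% against 6.97%, -0.51, edgeR adjusted p = 1.62e-13), isoleucine (2.17% against 2.88%, -0.36) and cysteine (0.598% against 0.783%, -0.48). The codon rule bears on this: when all 3 bases of the codon had to be inserted, valine was at 0.21 and arginine at -0.07, with edgeR adjusted p-values of 0.0596 and 0.181, so their direction turned.

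**Figure D5:**
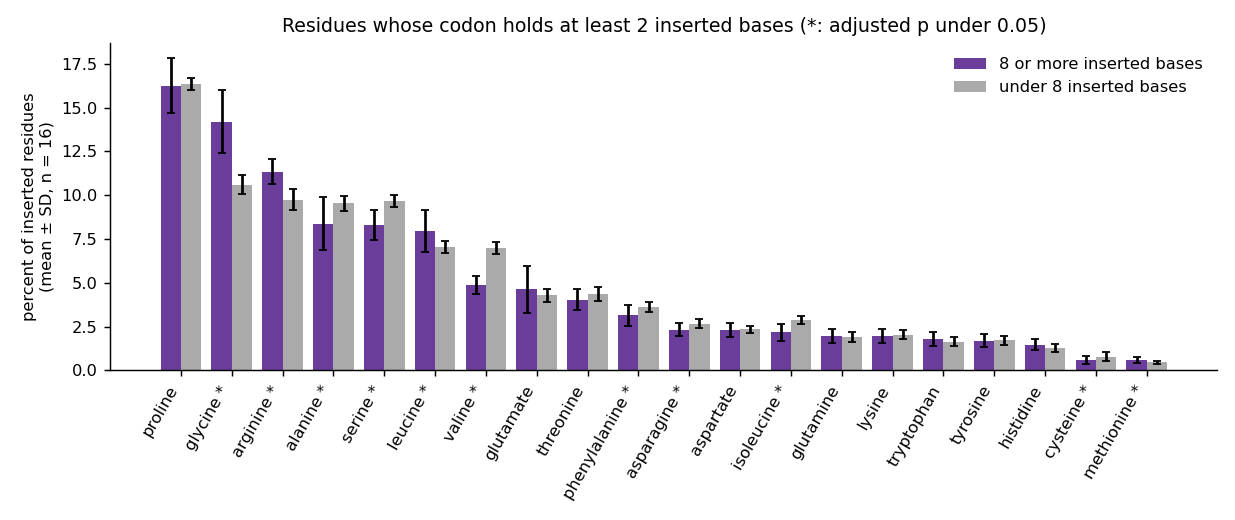
Bars give the mean percent of inserted residues that each amino acid made up, with the SD over 16 samples, for long-insertion rearrangements (purple) and other productive rearrangements (grey), on an axis that starts at 0. An asterisk marks an edgeR adjusted p under 0.05. Glycine stands at 14.2 against 10.6% and valine at 4.89 against 6.97%.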

How the data were processed

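TCRβ CDR3 regions were amplified and sequenced by Adaptive Biotechnologies with its mouse TCRB survey assay, in 16 samples in 4 groups of 4 mice, grouped by the treatment label. The deposited tables list each unique rearrangement of 87 bases with its templates as whole-number counts, its frequency as a fraction per the file headers, and its frame, V, D and J names, deletions and inserted bases. Those names and base counts were used as the authors' provider assigned them. The aligner and genome build are not given in the sources used here, so no coordinates are printed. The sample tag inside each file matched the treatment label in 16 of 16 files, but the sample number inside the file differed from the replicate number of the label in 13 of 16. Replicate numbers here are those of the labels.

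Productive rearrangements with 8 or more inserted bases over both joints were selected. The members, lists and tests were chosen with earlier results of these data known. Treatments were compared with Control on sample values by an exact, two-sided permutation form of Dunnett's test (63063000 assignments, all 4 groups), with Benjamini-Hochberg adjustment over 15 comparisons. Differences within samples were tested by exact two-sided sign changes over 16 samples (65536 assignments), adjusted over 8 measures. V and J genes and inserted residues were tested as counts of unique rearrangements or residues with edgeR 4.0.16 (quasi-likelihood, sample as a block, filterByExpr, library sizes as counted), with DESeq2 1.42.0 as an alternative, in R 4.3.3 and Python 3.11.15. Scripts were tested on simulated data. Wilson 95% intervals and values from thinning (mean of 20 draws to 7180 productive templates) cover counting error only. Alternatives were the insertion threshold, D ties, depth, single templates, templates as the unit, TMM factors, the count filter, the codon rule, the replicate block and each sample left out. Further alternatives were recurrence within equal CDR3 lengths, the largest productive clone of each sample left out, and splits of 8 samples. Chosen after seeing the data were leaving out the largest long-insertion clone, alone or with the largest other clone, low-count rearrangements with the CDR3 bases of a clone of 50 or more templates, or rearrangements with 15 or more V deletions or without a first cysteine, counting only different nucleotides as recurrence, thinning recurrence, and adding stop codon rearrangements.

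Genes named passed an adjusted p of 0.05, at most 10 per comparison by size of change, or, where none passed, had the smallest p-values. Also named were the largest clone of each group, the 5 CDR3s in most samples, the CDR3 with most inserted bases and up to 6 amino acids. The sequence of the rearrangement with 51 inserted bases is not printed, because its V assignment is doubtful. V names were matched to GRCm38.p6 RefSeq symbols (33 of 33).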

Additional observations from a re-analysis of the deposited data

Results flagged for a closer look

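Some samples stood far from the other 3 of their group by Dixon's test, which chance alone brings in about 5% of groups for each measure. Many measures, some of them related, were screened in each of the 4 groups, so some of these flags would arise by chance. In anti-PD-1 replicate 2, 8.08% of long-insertion CDR3s recurred in another sample, and its largest long-insertion clone, of TCRBV29-01, held 2.77% of productive templates. The J deletions of the same sample exceeded those of other productive rearrangements by 1.27 bases. In combination replicate 3, 5.64% of long-insertion CDR3s recurred. The largest long-insertion clone of ANT008 replicate 4, of TCRBV14-01, held 1.22% of productive templates. In combination replicate 2 the productive share of long insertions differed from the out-of-frame share by -5.38 points. In anti-PD-1 replicate 4, the sample with the fewest templates, recurrence differed from that of other productive rearrangements by -33.5 points.

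The clone size ratio of long-insertion to other productive rearrangements was below 0 on the log2 scale in 4 of 4 ANT008 samples and above 0 in 4 of 4 combination samples, a difference between the group means of 1.12. That difference was not tested, and it was 0.54 when the largest long-insertion clone and the largest other clone of each sample were left out, with 1 of 4 combination samples above 0.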

How the results depend on the processing

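Values below are treated minus Control (points, or log2 for clone size) unless said otherwise, and every p is from the exact permutation tests of the report. Over splits of 8 samples alone (smallest exact p 0.0286), the anti-PD-1 unique share at -0.624 had exact p = 0.0286 and combination recurrence at -2.78 exact p = 0.0571. Replicate numbers, which differ from the sample numbers inside the files in 13 of 16, showed no clear pairing of the mice. The mean correlation of deviations was 0.0362 over 24 same-numbered pairs (-0.373 to 0.437) and -0.0139 over 72 others (-0.478 to 0.551). In 3 of 16 samples the best correlation was with their own number. These values cannot show that pairing was absent. With the replicate number as a block, the ANT008 unique share had exact p = 0.0442 and combination recurrence at -2.78 exact p = 0.0958, and the block changed no other call. The insertion threshold mattered most. With 6 or more bases, the unique share was -1.18 for ANT008 (exact p = 0.133), the template share 1.71 for ANT008 and 1.14 for anti-PD-1, the clone size 0.28 and 0.21, recurrence 0.318 and 0.936, combination recurrence -0.982, and the clone size ratio over all 16 samples -0.31 (exact adjusted p = 0.0236). With 10 or more bases, the template share was 0.230 for ANT008 and 0.499 for anti-PD-1, the clone size 0.59 and 0.76, combination recurrence -2.44, and the clone size ratio over 16 samples -0.86 (exact adjusted p = 0.000153), against -0.28 (exact adjusted p = 0.0723) with 8. With resolved D genes only, the ANT008 unique share was -0.997 (exact p = 0.0562), combination recurrence -2.93 (exact p = 0.123), and for anti-PD-1 the template share was 0.00406 and clone size 0.17. The ANT008 unique share was -0.756 without single templates (exact p = 0.153), -0.772 after thinning (exact p = 0.0735) and -0.755 without low-count rearrangements with the CDR3 bases of a large clone (exact p = 0.0660). Combination recurrence was -1.82 after thinning (exact p = 0.255). The anti-PD-1 clone size was 0.079 without the largest long-insertion clones and 0.028 without these and the largest other clones. The clone size ratio over 16 samples was -0.58 in the latter case (exact p = 0.000183, unadjusted) and -0.12 without the largest clone of each sample (exact p = 0.438, unadjusted). Leaving out 1 sample at a time gave an ANT008 unique share of -1.26 to -0.739 (exact p = 0.0562 without ANT008 replicate 3), an anti-PD-1 template share of -1.88 to 0.378 (above 0 without Control replicate 1), a combination template share of 1.65 to 3.60, an anti-PD-1 clone size of -0.35 to 0.16 (above 0 without Control replicate 1 or anti-PD-1 replicate 3), and a combination clone size of 0.60 to 1.02 (exact p = 0.0121 without Control replicate 1, 0.0499 without anti-PD-1 replicate 2). Recurrence ran from -2.94 to -1.89 for ANT008 (exact p = 0.0332 when anti-PD-1 replicate 2 was left out and 0.0466 when ANT008 replicate 1 was) and from -3.50 to -2.51 for the combination. The clone size ratio over the remaining samples ran from -0.34 to -0.23 (exact adjusted p = 0.0361 to 0.0451 without Control replicate 1 or combination replicate 2, 3 or 4). The number of J genes higher ran from 1 to 3. Counted by templates, 0 V genes were higher and 4 lower, 0 J genes were higher, and log2 fold changes were -0.56 for TCRBV14-01, -0.070 for TCRBV24-01, -0.50 for TCRBV16-01, -0.11 for TCRBV04-01 and -0.34 for TCRBJ02-04. By templates between treatments, TCRBV17-01 was at 0.18 with ANT008, TCRBV20-01 at -0.35 with anti-PD-1 and TCRBV13-01 at -0.40 with the combination, where 1 V gene was lower. With 10 or more bases 2 V genes were higher and 2 lower, and 0 J genes passed in either direction. The J genes lower numbered 1 with DESeq2 and 1 with TMM factors, and those higher 1 with resolved D genes. TMM factors gave 8 residues higher and 4 lower. With all 3 codon bases inserted 2 residues were higher, and valine was at 0.21 and arginine at -0.068. Apart from leaving out samples, 193 main values kept their direction and call under these alternatives, 11 lost a call, 4 gained one, 14 counts moved by over 1.5 times and 14 changed direction. Of the values of single genes and residues, 117 kept direction and call, 23 lost a call and 10 changed direction. The number of templates limited the smaller samples most: ANT008 replicate 3 had 142 long-insertion rearrangements.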
